A study of Gallus gallus with 16 samples.

Results

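PB1 alone was compared with untreated HD11 cells, without LPS in either group, and the transcripts described are those with a mean of 10 or more reads per 1000000 in the PB1 group, the CTR group or both. Of the 6492 transcripts in the deposited table, 4094 met this level, 3843 of them in both groups, 112 in PB1 only and 139 in CTR only. The level was taken from the data, so a transcript that passed it in 1 group only had to differ to some degree. The members nearest to the limit had a higher group mean of 10.02 to 10.04 reads per 1000000, and the nearest transcripts left out had 9.945 to 9.967. HD11 is an established chicken macrophage-like cell line. PB1 is procyanidin B1, a dimer of flavan-3-ol units found in plants, which by the study's text was the purchased standard. The CTR cells received PBS and no PB1, and the PB1 cells received 100 μg/mL of it. The study's methods give 12 h of PB1 before the LPS step, and how long the cells without LPS stayed in it afterwards is not given in the sources used here. A further compound, SeMC, is named in the labels' treatment protocol at 100 μM, while the treatment label of the samples reads PB1, and this was not resolved. Both groups share the HD11 line, its medium and no LPS, and a single cell line limits what they model. The labels list 4 replicates per group and the study's methods 3.

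Procyanidins are polyphenols that scavenge reactive oxygen species and are studied for their effects on the NRF2 pathway, which induces antioxidant enzymes, and on NF-κB signalling, which drives inflammatory genes in macrophages. HIF1A, the oxygen-regulated subunit of hypoxia-inducible factor 1, supports glycolysis and inflammatory gene expression in activated macrophages. Macrophages also remodel extracellular matrix, whereas collagens and other structural matrix proteins are made mainly by mesenchymal cells. Gene roles given here are those known from vertebrates in general, mostly from mammals.

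The 4 CTR libraries held 4185555 to 4329089 reads and the 4 PB1 libraries 4173989 to 4317557, recovered from the deposited values as described with the processing. Values are given as normalized signal, the deposited value scaled to 1000000 per library, which includes the 1 read that the authors' scaling adds to every transcript. Replicates 1 and 2 of CTR lay closer to each other (chi-square per degree of freedom 1.17) than to replicates 3 and 4 (20 to 22.8), and such pairs were less separate in PB1 (1.49 and 5.32 within, 4.62 to 12.4 between). Nothing states that the replicates came from separate cultures, so that p-values measure the spread between these libraries, which may be technical. Only 2 of the 24 macrophage markers listed were in the named part of the table. CYBB, a subunit of the phagocyte oxidase, had 0 reads in all 16 libraries of the series. In contrast, 8 fibroblast and mesenchyme markers were at the level, and the sum of their signal was 78515 to 96938 in the CTR libraries and 50509 to 53739 in the PB1 libraries. The macrophage-like label could therefore not be checked on defining macrophage markers, and mesenchymal markers were abundant. PB1 replicate 3 held 557 reads of HBA1, a hemoglobin chain, against 0 to 2 in the other PB1 libraries and 0 to 6 in CTR. HBA1 was the only member left untested by the filter on low values, and without PB1 replicate 3 the number of members called was 782.

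PB1 changed the expression of 779 of the 4093 tested members (19.0%), 393 of them higher and 386 lower than in CTR, by limma with a limit of 0.05 on the adjusted p and of 1.5 on the fold change. Among all 4485 transcripts tested, 20.9% were called, 10.5% higher and 10.4% lower. The median log2 fold change of the members was 0.007, and that of all transcripts tested was 0.008. Among the members that passed the level in both groups, 574 of 3843 (14.9%) were called, and among the 250 that passed it in 1 group only, 205 were called. The 4 libraries of both groups did not overlap for 769 of the 779 called members, where 42.4% of all transcripts tested did not overlap. All 779 had the same direction within replicates 1 and 2 and within replicates 3 and 4, and 632 were past 1.5-fold in both pairs. The called members were chosen on these same libraries, which favours agreement of the pairs and lack of overlap. These counts are therefore a description. The median size of the called changes was 1.07 on the log2 scale, and 166 members changed more than 4-fold, 64 higher and 102 lower. In bulk RNA, fewer cells of a type and less RNA per cell cannot be told apart, which applies to each lower value below.

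**Figure D1:**
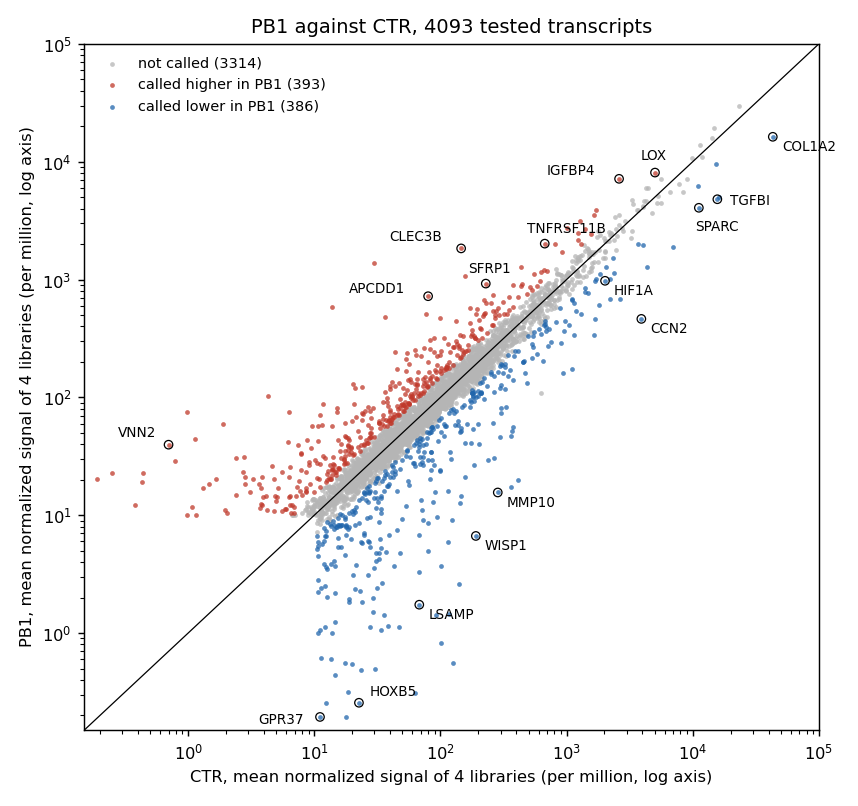
Mean normalized signal (scaled to 1000000 per library) of the 4 CTR libraries (x axis, log) against that of the 4 PB1 libraries (y axis, log), 1 point per tested member, with called transcripts in red (393 higher in PB1) and blue (386 lower) and some named genes ringed. Most points lie along the line of equal signal, COL1A2, TGFBI, SPARC and CCN2 lie below it at high signal, and CLEC3B, APCDD1, SFRP1 and IGFBP4 lie above it.

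A gene symbol was known for 1187 of the tested members, of which 216 (18.2%) were called, 97 higher and 119 lower, and 563 of the 2906 members without a symbol (19.4%) were called. The transcripts without a symbol included some of the largest changes. XM_046928513.1 had a signal of 1.37, 0.466, 1.41 and 0.702 in CTR and 72.8, 73.9, 68 and 84.4 in PB1, with 13 reads in the CTR group and 1300 in the PB1 group. XM_040686566.2 rose from 16 to 45.4 in CTR to 1160 to 1540 in PB1, a log2 fold change of 5.65 ± 0.28 (SE). XR_005849533.2 fell from 105 to 157 in CTR to 0.199 to 0.926 in PB1, with 2083 reads against 6. XM_046917801.1 fell from 53.7 to 67.8 to 0.195 to 0.64, with 1035 reads against 2, a ratio of 519 with a 95% exact counting interval of 143 to 4290. XR_005849533.2 and XM_046917801.1 passed the level in CTR only, and XM_046928513.1 in PB1 only, so these had to differ to some degree. All of these accessions were matched to no gene symbol and are given by accession only.

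The named members were sorted into 49 gene classes, which held 513 tested members, and 120 of these (23.4%) were called, 44 higher and 76 lower. The class counts here and below stand beside 19.0% of all tested members called. Of 11 genes of TGF-β and BMP signalling, 2 were higher and 7 lower, and of 14 collagen and matrix genes, 3 were higher and 7 lower. Of 19 developmental transcription factors other than HOX genes, 4 were higher and 9 lower. Members that passed the level in 1 group only had to differ, so the counts were also taken over those that passed it in both. These were 2 higher and 3 lower of 7 for TGF-β and BMP signalling, 3 higher and 6 lower of 13 for matrix, and 4 higher and 4 lower of 14 for the developmental factors, where 14.9% of all such members were called. No gene was called by limma, edgeR or DESeq2 among 29 ribosomal proteins, 24 translation factors or 15 genes of DNA replication and repair. In these, 17, 7 and 4 genes had an unadjusted p under 0.05 in limma. An adjusted p of at most 0.05 was reached by 13, 6 and 4, all under the fold limit. The classes overlap, a gene may stand in several, and small classes give imprecise shares, so the counts are given as a description with no test of a class.

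**Figure D2:**
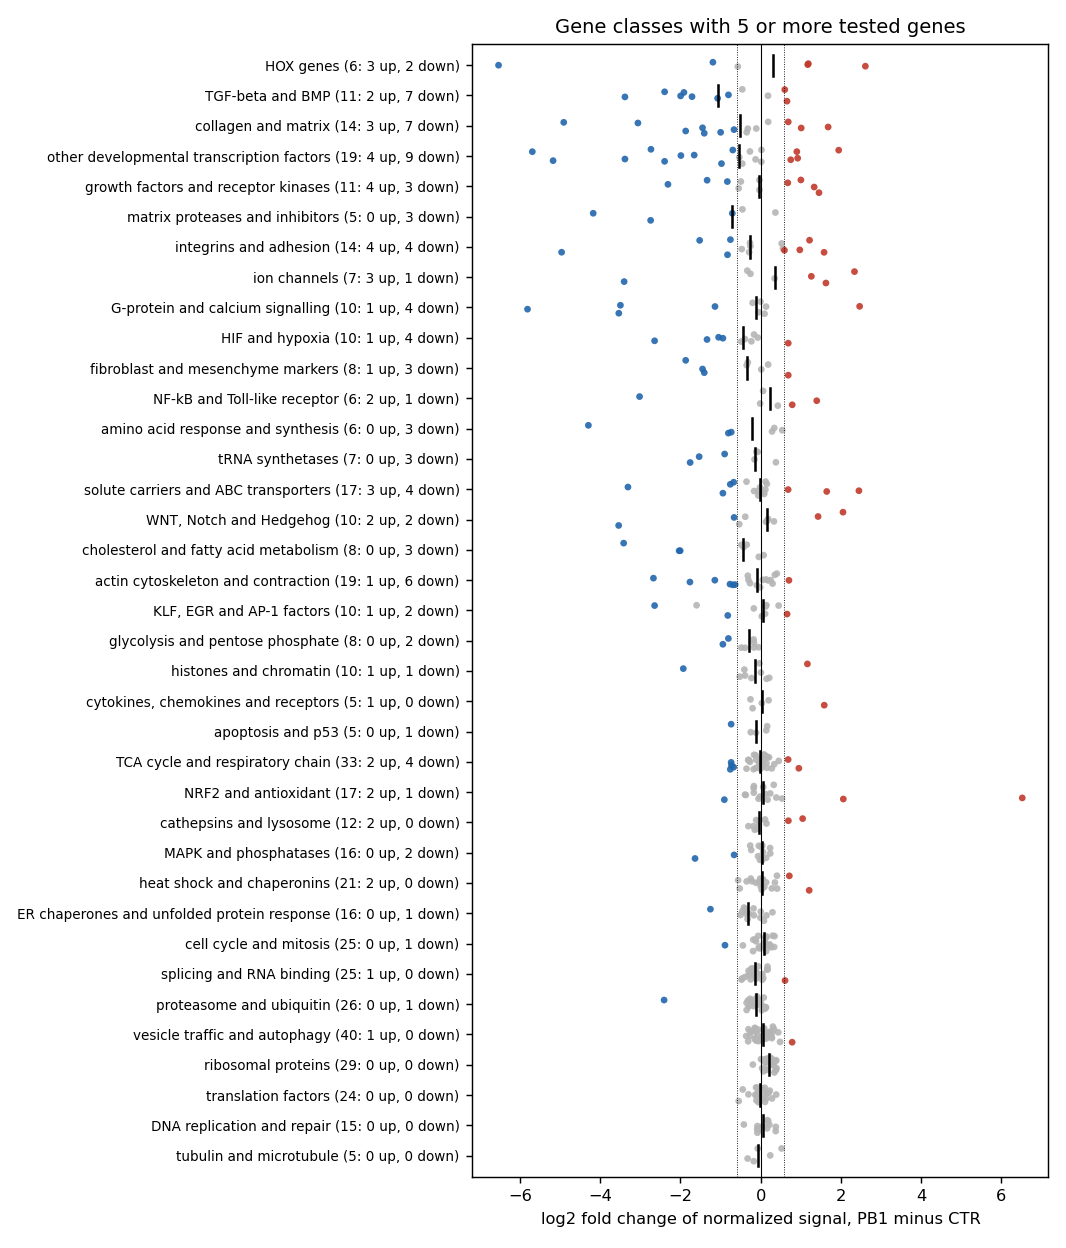
Log2 fold change of normalized signal (PB1 minus CTR, x axis) of each tested gene in the classes with 5 or more tested genes, with called genes in red (higher) or blue (lower), others in grey, black bars for class medians and dotted lines at a 1.5-fold change. The matrix, TGF-β and BMP, and developmental factor classes hold called genes on both sides, whereas ribosomal, translation and DNA replication genes lie between the lines.

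Several genes of structural extracellular matrix were lower in PB1 cells. COL1A2 (chromosome 2, 23476066 to 23515037, GRCg7b), which encodes the α2 chain of type I collagen, had a signal of 41200, 40300, 47000 and 44500 in CTR and 15800, 16300, 15900 and 17100 in PB1. The groups did not overlap, and the log2 fold change was -1.41 ± 0.10 (SE, n = 4 per group, limma adjusted p = 1.64e-07). COL3A1 (chromosome 7, 671206 to 805182), the chain of type III collagen, had 5750, 5630, 8530 and 8210 in CTR and 1710, 1780, 2050 and 2030 in PB1. Within CTR its replicates 3 and 4 were above replicates 1 and 2, yet all PB1 values were below all of them, with a log2 fold change of -1.87 ± 0.14 (limma adjusted p = 3.87e-07). SPARC, a collagen-binding glycoprotein, had 10000, 9810, 12400 and 12500 in CTR and 3740, 3910, 4240 and 4390 in PB1, and was 2.73-fold lower. These 3 genes stand both in the matrix class and among the 8 mesenchyme markers. Of the other markers, COL6A2, DCN, LUM and TWIST1 did not pass the limits, and LOX, described below, was called higher (log2 fold change 0.69). Whether fewer matrix-producing cells among the HD11 cells play a part in these values was not tested.

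The CCN family of matricellular proteins, which link growth factors and integrins to the matrix, moved in both directions. CCN2, WISP1 and CYR61 (CCN1, log2 fold change -0.998) were called lower and CCN3 higher. CCN2 (connective tissue growth factor, chromosome 3, 56836500 to 56839471) had 4550, 4700, 3240 and 3200 in CTR and 408, 441, 478 and 530 in PB1. It fell by 3.06 ± 0.13 on the log2 scale (limma adjusted p = 4.73e-09), which is 8.35-fold, and the lowest CTR library was far above the highest PB1 library. WISP1, now named CCN4, had 149, 152, 250 and 213 in CTR and 5.53, 3.33, 8.51 and 9.31 in PB1, and was 30.1-fold lower. It passed the level in CTR only and so had to differ to some degree. By contrast CCN3 rose from 21.7, 23.7, 18 and 16.5 to 66.1, 64.4, 63.2 and 60.2, a log2 fold change of 1.68 ± 0.12. LOX (chromosome Z, 84994359 to 85007177), the lysyl oxidase that cross-links collagen and elastin, also rose, from 4820, 4860, 5410 and 5030 to 8260, 8040, 8050 and 8060. Its change of 0.69 ± 0.07 on the log2 scale (limma adjusted p = 8.13e-06) ran opposite to those of COL1A2 and COL3A1.

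Of 5 matrix proteases and protease inhibitors, 3 were lower and 0 higher. MMP10, the secreted protease stromelysin 2, had 214, 193, 363 and 370 in CTR and 18.6, 19.3, 15 and 9.56 in PB1, a log2 fold change of -4.18 ± 0.25. ADAM19, a membrane-bound metalloprotease, fell from 67.3 to 77.2 in CTR to 7.98 to 14.8 in PB1, and TIMP3, which inhibits metalloproteases, fell from 1270 to 1520 to 838 to 861. TIMP2, another inhibitor, was not called, with a signal of 5390 to 5950 in CTR and 6900 to 7410 in PB1 (log2 fold change 0.37). Among 12 cathepsin and lysosome genes, 2 were higher and none lower by the call limits (16.7%, against 19.0% of all tested members). CTSC, the cathepsin that activates serine proteases of granules, had 435, 441, 675 and 645 in CTR and 1060, 1060, 1180 and 1150 in PB1 (log2 fold change 1.05 ± 0.14, limma adjusted p = 5.4e-05). CTSK, a collagen-degrading cathepsin, rose by 0.69 ± 0.16, but it rose by 1.08 in replicates 1 and 2, while replicates 3 and 4 alone gave 0.29 and lost the call, and it was 0.56 without CTR replicate 2.

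**Figure D3:**
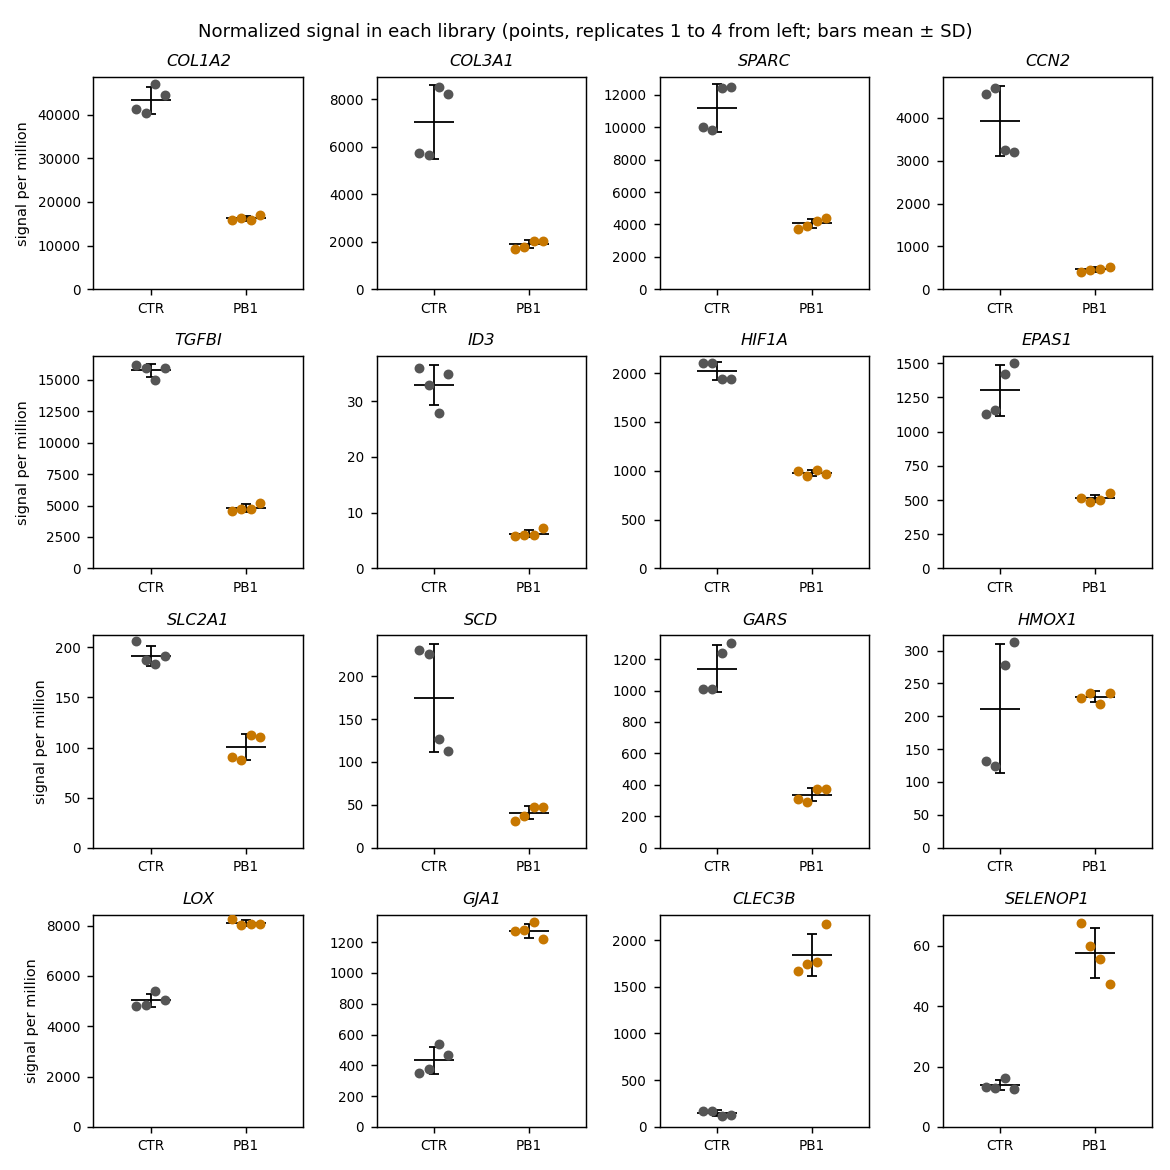
Normalized signal (scaled to 1000000 per library) in each library for 16 genes, with replicates 1 to 4 from left to right as points in CTR (grey) and PB1 (orange), and bars for mean ± SD (n = 4). In 15 panels the groups do not overlap, while in that of HMOX1 the PB1 values (218 to 236) lie between CTR replicates 1 and 2 (132 and 124) and replicates 3 and 4 (278 and 313).

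Genes of the TGF-β and BMP pathways, secreted ligands that signal through SMAD proteins, moved in both directions, with 2 of 11 higher and 7 lower. Of the 7 that passed the level in both groups, 2 were higher and 3 lower, with a median log2 fold change of -0.46, and the other 4 (ID3, ID4, NOG and BAMBI) entered through CTR only. TGFBI (chromosome 13, 14773378 to 14794105), a matrix protein named for its induction by TGF-β, had 16200, 15900, 15000 and 15900 in CTR and 4600, 4710, 4700 and 5240 in PB1. Its log2 fold change was -1.71 ± 0.08 (limma adjusted p = 6.42e-09), and the CTR values spread by far less than the distance to PB1. ID3 and ID4 encode inhibitors of basic helix-loop-helix factors and are targets of BMP signalling. ID3 had 36, 32.9, 27.9 and 34.8 in CTR and 5.76, 6.07, 5.97 and 7.17 in PB1, and ID4 had 24, 23.4, 24.2 and 20.5 in CTR and 3.09, 1.99, 2.3 and 1.66 in PB1. Both fell without overlap, by 2.40 ± 0.13 and 3.39 ± 0.20 on the log2 scale. The BMP antagonist noggin (NOG) fell as well, from 11.8 to 17.7 in CTR to 2.39 to 5.3 in PB1, as did BAMBI, a decoy receptor of the pathway, from 22.8 to 26.7 to 5.05 to 9.31. FSTL1, a secreted follistatin-like glycoprotein, fell from 10700 to 11600 to 6000 to 6470, a 1.74-fold change. The 2 called rises were those of SMAD3, a signal transducer, from 309 to 373 to 498 to 537, and of SMAD6, an inhibitory SMAD, from 48.3 to 67 to 83.5 to 92.6. The proteins and the activity of the pathway were not measured.

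Of 19 genes of the actin cytoskeleton and contraction class, 6 were lower and 1 was higher (36.8%, against 19.0% of all tested members). Over the 18 that passed the level in both groups, 5 were lower and 1 higher (33.3%, against 14.9% of all such members). ACTB, cytoplasmic β-actin, had 15000, 15000, 15300 and 16400 in CTR and 8690, 8870, 9570 and 11300 in PB1. It is often taken as a reference gene, and here its groups did not overlap (log2 fold change -0.69 ± 0.10, limma adjusted p = 0.00012). ACTN1, which bundles actin filaments, had 2160, 2110, 2160 and 2430 in CTR and 892, 912, 1020 and 1210 in PB1, and RHOB, a small GTPase of the actin network, had 226, 227, 171 and 172 against 52.6, 45, 68 and 70.7. RHOJ, a related GTPase that passed the level in CTR only, fell from 24.3 to 36.8 in CTR to 4.42 to 5.7 in PB1. The median log2 fold change of the class was -0.10. The summed signal of its tested members was 45027 to 48347 in CTR and 44398 to 48020 in PB1. The class also holds VIM, an intermediate filament gene (log2 fold change 0.35), and the lamin gene LMNB2 (-0.095). The sum is therefore not that of actin genes alone. None of the 5 tubulin and microtubule genes was called by limma, edgeR or DESeq2, and 3 had an unadjusted p under 0.05 in limma.

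Adhesion genes split evenly, with 4 of 14 integrin and adhesion genes higher and 4 lower (57.1%, against 19.0% of all tested members). Over the 13 that passed the level in both groups, 4 were higher and 3 lower. PCDH10, a protocadherin, had 9.91, 8.75, 18.8 and 21.6 in CTR and 0.408, 0.448, 0.459 and 0.439 in PB1, with 237 reads against 4. It passed the level in CTR only and so had to differ to some degree. CDH4 (R-cadherin) fell from 77.5 to 81.4 in CTR to 20.1 to 43.7 in PB1. GJA1, the gap junction protein connexin 43, had 349, 374, 541 and 464 in CTR and 1270, 1280, 1330 and 1220 in PB1, and rose 3.00-fold (limma adjusted p = 4.07e-07). ITGB3, the integrin β3 chain, rose from 17.5 to 27.1 in CTR to 42.6 to 58.5 in PB1.

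Among transcription factors of development, several were close to the detection limit in PB1 cells. HOXB5 (chromosome 27, 3412953 to 3428530), a homeobox factor of axial patterning, had 21.9, 16, 23.9 and 28.4 in CTR and 0.175, 0.448, 0.209 and 0.195 in PB1. This was 368 reads against 1, a ratio of 369 with a 95% exact counting interval of 65.9 to 14600, which covers counting error only. HOXD4 fell from 23.6 to 41.6 to 11.7 to 16, whereas HOXA13 rose from 2.16 to 2.59 in CTR to 11 to 18.2 in PB1 and HOXA3 from 4.34 to 5.81 to 9.9 to 11.9. The HOX genes thus moved in both directions, with 3 of 6 higher and 2 lower. Of the 6, 4 entered through 1 group only and so had to differ to some degree, HOXB5, HOXA13 and HOXA3 among them. SOX6, SOX9 and SOX11, HMG-box factors of lineage choice, were lower in every PB1 library than in every CTR library. All 3 passed the level in CTR only and so had to differ to some degree. SOX9, the factor of cartilage formation, had 19.6, 22.2, 21.4 and 18.2 in CTR and 2.85, 2.44, 4.38 and 2.83 in PB1. SOX11 fell from 15.2 to 20.6 to 0.199 to 0.926, and SOX6 from 10.6 to 14.9 to 0.175 to 0.439, with 202 reads against 1 (ratio 203, interval 36.0 to 8050). MEIS2, a homeodomain partner of HOX proteins, had a higher signal and tight replicates, with 354, 365, 303 and 308 in CTR and 87.4, 80.2, 85.3 and 80.8 in PB1 (log2 fold change -1.99 ± 0.08, limma adjusted p = 1.86e-09). TBX18, a T-box factor of mesenchyme, rose from 47.6, 51.1, 40.2 and 41.3 to 175, 185, 171 and 161, which is 3.86-fold.

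The KLF, EGR and AP-1 class, which holds many immediate-early factors, had 1 of 10 higher and 2 lower. BTG1, an antiproliferative factor, rose from 138 to 163 in CTR to 234 to 244 in PB1, a call that was lost for replicates 3 and 4 alone (log2 fold change 0.55).

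HIF1A (chromosome 5, 53477262 to 53507982) was 2.07-fold lower in PB1 cells. It had 2100, 2100, 1940 and 1940 in CTR and 993, 943, 1010 and 962 in PB1 (log2 fold change -1.05 ± 0.06, limma adjusted p = 5.02e-08). The spread within both groups was small beside the difference, and the log2 fold change stayed between -1.07 and -1.03 when each library was left out. EPAS1 (chromosome 3, 26202113 to 26321576), which encodes the related subunit HIF-2α, had 1130, 1160, 1420 and 1500 in CTR and 514, 486, 500 and 548 in PB1, and fell by 1.34 ± 0.09 on the log2 scale (limma adjusted p = 2.37e-07). Both α subunits were therefore lower at the RNA level, while their proteins, which are controlled mainly by degradation, were not measured. Of the 10 HIF and hypoxia genes, 4 were lower and 1 was higher. Over the 9 that passed the level in both groups, 3 were lower and 1 was higher. SLC2A1, the glucose transporter GLUT1, had 206, 187, 183 and 191 in CTR and 90.8, 87.1, 113 and 111 in PB1. BHLHE40, a hypoxia-induced repressor, fell from 55.9, 43.7, 37.5 and 44.9 to 5.3, 5.62, 9.68 and 9.31. It passed the level in CTR only and so had to differ to some degree. The gene that rose was LOX, a hypoxia target described above with the matrix.

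The other hypoxia genes did not pass the limits. ENO1, the glycolytic enzyme enolase, had 2350 to 2540 in CTR and 1510 to 2040 in PB1 (log2 fold change -0.48 ± 0.10, adjusted p = 0.00153 in limma), under the 1.5-fold limit. PGAM1 and ALDOC, further enzymes of glycolysis, had log2 fold changes of -0.39 and -0.17, the MYC antagonist MXI1 -0.23 and the mitophagy receptor BNIP3L -0.07. Over the 8 genes listed for glycolysis and the pentose phosphate pathway the median was -0.28, with 2 lower and none higher by the call limits. The 2 were the glucose transporter SLC2A1 and the aspartate aminotransferase GOT1 (log2 fold change -0.81), and no enzyme of the 2 pathways was called. The class of the tricarboxylic acid cycle and respiratory chain also holds mitochondrial carriers and import subunits. In it, 2 of 33 genes were higher and 4 lower. The shares called were 25.0% and 18.2%, against 19.0% of all tested members. FH, fumarate hydratase, rose from 62.5 to 70.6 in CTR to 118 to 134 in PB1 (log2 fold change 0.95 ± 0.07), and TIMM44, a subunit of the mitochondrial import motor, fell from 61.5 to 74.6 to 38.8 to 42.4. The called genes also included the carriers SLC25A13 (-0.67), SLC25A15 (-0.76) and SLC25A4 (0.69). CYCS, cytochrome c, was called lower (-0.74) but lost the call for replicates 3 and 4 alone (-0.52).

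Of 17 NRF2 target genes and other antioxidant genes tested, 2 were higher and 1 lower (17.6%, against 19.0% of all tested members), and the median log2 fold change was 0.06. Over the 16 that passed the level in both groups, 1 was higher and 1 lower. NFE2L2, which encodes NRF2, had 328, 336, 368 and 381 in CTR and 286, 265, 268 and 273 in PB1 (log2 fold change -0.37 ± 0.07, adjusted p = 0.000714 in limma). This difference was without overlap but under the 1.5-fold limit, as were those of SOD1 (superoxide dismutase, 0.33 ± 0.07), CAT (catalase, 0.39 ± 0.07) and TXNRD1 (thioredoxin reductase, -0.39 ± 0.11). HMOX1, heme oxygenase 1, the classical NRF2 target, had 132, 124, 278 and 313 in CTR and 228, 236, 218 and 236 in PB1. The CTR libraries split by replicate pair, with a log2 fold change of 0.86 for replicates 1 and 2 alone and of -0.39 for replicates 3 and 4 alone (0.24 ± 0.26 in all, adjusted p = 0.482 in limma). FTH1, the ferritin heavy chain that stores iron, split in the same way, with 2830, 2850, 4110 and 5000 in CTR and 3800, 3870, 3550 and 4360 in PB1. For these 2 genes the difference between pairs of CTR libraries was larger than that between the groups.

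The antioxidant genes that passed the limits were VNN2, SELENOP1 and PRDX6. VNN2 (chromosome 3, 56479597 to 56489691), a pantetheinase whose product cysteamine is a thiol, had 0.195, 0.207, 0.415 and 1.98 in CTR and 43.9, 44.8, 33.9 and 36.1 in PB1. It passed the level in PB1 only and so had to differ to some degree. It rose from 8 reads in the CTR group to 691 in the PB1 group, a ratio of 86.1 with a 95% exact counting interval of 43.4 to 200.0 that covers counting error only. Of the 8 CTR reads 7 were in replicate 4, without which the log2 fold change was 7.26 in place of 6.53. SELENOP1 (SELENOP), which transports selenium, had 13.1, 13, 16.3 and 12.7 in CTR and 67.6, 59.9, 55.8 and 47.5 in PB1 (log2 fold change 2.06 ± 0.13, limma adjusted p = 7.62e-08). PRDX6, a peroxiredoxin that reduces peroxides, fell from 719, 717, 626 and 704 to 373, 359, 372 and 370. SELENOW, another selenoprotein, had 81.8 to 116 in CTR and 136 to 150 in PB1 (0.53 ± 0.10), under the fold limit but called without CTR replicate 4 (0.61), and SELENOK had 27.1 to 32.9 and 29 to 32 with overlapping groups.

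Few genes of NF-κB and Toll-like receptor signalling could be measured by name, and of 6 tested, 2 were higher and 1 lower. The called genes, NFKBIZ, IRAK2 and TLR3, each passed the level in 1 group only and so had to differ to some degree. None of the 3 that passed it in both groups was called, where 14.9% of all such members were. NFKBIZ, a nuclear IκB protein that directs secondary inflammatory genes, had 37.6, 37.1, 28.8 and 27.6 in CTR and 2.21, 4.03, 5.51 and 5.22 in PB1 (log2 fold change -3.02 ± 0.26, limma adjusted p = 1.36e-06). IRAK2, a kinase downstream of Toll-like receptors, rose from 7.62, 9.94, 6.39 and 6.32 to 21.3, 17.3, 18.9 and 21.3, and TLR3, the receptor of double-stranded RNA, rose from 5.76, 6.11, 8.88 and 6.83 to 9.95, 11.2, 12.2 and 13.8. NFKBIA, the IκBα inhibitor that NF-κB induces, had 48.8 to 65.4 in CTR and 47.8 to 58.8 in PB1, with overlapping groups and a log2 fold change of -0.01 ± 0.11. MAP3K14 (NIK), the kinase of the non-canonical pathway, had 0.06 ± 0.15, and RIPK2, a kinase of NOD receptors, 0.43 ± 0.10. The inhibitor, the kinases and the receptor of this class did not share a direction.

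None of the 4 interferon and antiviral genes passed the limits in limma, edgeR or DESeq2, and 2 had an unadjusted p under 0.05 in limma. IFIH1, the cytosolic sensor MDA5, had 10.4 to 10.9 in CTR and 10.6 to 14.6 in PB1, and IFIT5, an RNA-binding effector, 53.5 to 55.9 and 45.7 to 55.4. The adaptor STING (TMEM173) had 182, 176, 164 and 166 in CTR and 109, 109, 113 and 148 in PB1. The groups did not overlap, the log2 fold change of -0.53 ± 0.10 was under the limit, and without PB1 replicate 4 it was -0.64 and called. TRIM25, a ubiquitin ligase of RNA sensing, had 184 to 197 in CTR and 229 to 288 in PB1 (0.46 ± 0.08). Of 5 cytokine, chemokine and receptor genes, 1 was called, TNFRSF11B (osteoprotegerin, the decoy receptor of RANKL), which had 623, 631, 711 and 722 in CTR and 2080, 2130, 1940 and 1930 in PB1. It was 3.00-fold higher (limma adjusted p = 5.99e-09). PTX3, a secreted pattern recognition molecule of innate immunity, fell from 2920, 2840, 2560 and 2280 in CTR to 671, 683, 700 and 673 in PB1, a 3.87-fold change.

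Of 6 genes of amino acid response and synthesis, 3 were lower and none higher by the call limits. Over the 5 that passed the level in both groups, 2 were lower. CHAC1, a glutathione-degrading enzyme induced by amino acid shortage in mammals, had 47.1, 40.9, 84.4 and 99 in CTR and 2.21, 3.78, 3.88 and 3.32 in PB1. It fell by 4.30 ± 0.28 on the log2 scale (limma adjusted p = 1.19e-07), with 1105 reads against 54. CHAC1 passed the level in CTR only and so had to differ to some degree. Of 17 solute carriers and ABC transporters, 3 were higher and 4 lower (41.2%, against 19.0% of all tested members). Over the 14 that passed the level in both groups, 1 was higher and 3 lower. SLC38A1, a transporter of glutamine and other neutral amino acids, had 136, 125, 180 and 141 in CTR and 14.4, 15.3, 17.3 and 11.7 in PB1. Of the 7 tRNA synthetases, which charge tRNAs with amino acids, 3 were lower and 0 higher (42.9%, against 19.0% of all tested members). The other 4 had log2 fold changes of -0.153 to 0.381, and the median of the class was -0.15. GARS (glycine) had 1010, 1010, 1240 and 1300 in CTR and 308, 293, 373 and 375 in PB1, TARS (threonine) had 451 to 481 and 144 to 176, and CARS (cysteine) 181 to 228 and 102 to 116. All 3 were without overlap, at 3.39-fold, 2.90-fold and 1.86-fold lower. The synthetases were found in the table under older symbols, which were matched after the table had been seen. ASS1, argininosuccinate synthase, was called lower (-0.73 ± 0.21, limma adjusted p = 0.0138), with 185, 177, 331 and 372 in CTR and 156, 145, 140 and 168 in PB1. The call rested on CTR replicates 3 and 4, since the change was -0.27 within replicates 1 and 2 and -0.55 without CTR replicate 4.

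The class of endoplasmic reticulum chaperones also holds genes of protein entry and processing there, such as SEC61B, DDOST and SPCS1. Of its 16 genes 1 was lower, and the median log2 fold change was -0.31. That gene was HYOU1, a chaperone of the stressed endoplasmic reticulum, which fell from 274 to 336 in CTR to 111 to 141 in PB1 (-1.25 ± 0.09). Of 21 heat shock genes and chaperonins 2 were higher, of which HSBP1, a binding protein of heat shock factor 1, rose from 193 to 248 to 504 to 519. Lipid metabolism had 3 of 8 genes lower and none higher by the call limits, and 1 of the 6 that passed the level in both groups was lower. SCD, the stearoyl-CoA desaturase that makes monounsaturated fatty acids, had 231, 226, 127 and 113 in CTR and 31.5, 37.2, 47.7 and 47.5 in PB1, and its log2 fold change of -2.03 ± 0.23 was -2.74 for replicates 1 and 2 alone and -1.34 for replicates 3 and 4 alone. PPARG, the nuclear receptor of lipid storage, fell from 20.9 to 26.5 to 4.59 to 8.11, and ELOVL2, an elongase of polyunsaturated fatty acids, from 7.85 to 14.2 to 0.683 to 1.38. CH25H, which makes the immune oxysterol 25-hydroxycholesterol, had 74.4, 75.7, 84.7 and 85.3 in CTR and 4.66, 4.92, 6.89 and 3.56 in PB1, a log2 fold change of -4.04 ± 0.17 (limma adjusted p = 3.9e-09). PPARG, ELOVL2 and CH25H, and ADH1C below, passed the level in CTR only and so had to differ to some degree. The 2 retinoid and aldehyde genes were both called lower. ALDH1A3, which makes retinoic acid, had 243 to 284 in CTR and 87.5 to 138 in PB1. ADH1C, an alcohol dehydrogenase, had 6.69, 6.83, 44.4 and 37.8 in CTR and 6.87, 5.82, 6.22 and 4.29 in PB1, so that its call (limma adjusted p = 0.0425) came from CTR replicates 3 and 4 alone, and the adjusted p was 0.125 without CTR replicate 3, 0.115 without CTR replicate 4, and 0.0608 to 0.0924 without PB1 replicate 1, 2, 3 or 4.

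Receptors and channels held some of the largest changes at low signal. GPR37, GRPR, EDNRA, KCNJ2 and KCNMB4 passed the level in 1 group only and so had to differ to some degree. In G-protein and calcium signalling, 1 of 10 genes was higher and 4 were lower. Over the 7 that passed the level in both groups, 1 was higher and 1 lower. GPR37, an orphan receptor, had 12.2, 12.1, 8.14 and 11.9 in CTR and no read in any PB1 library, and was at least 60.2-fold lower when the PB1 group is set at 3 reads. The receptor of gastrin-releasing peptide, GRPR, had 52.7, 50.1, 17 and 17.7 in CTR and 3.73, 2.24, 2.75 and 1.9 in PB1. EDNRA, the endothelin A receptor, fell from 8.54 to 13.7 to 0.459 to 1.51. PTGER2, the prostaglandin E2 receptor EP2, rose instead, from 20.6, 18.2, 11.5 and 10.4 in CTR to 84.1, 91.4, 78.4 and 70.3 in PB1 (log2 fold change 2.47 ± 0.20, limma adjusted p = 7.82e-07). Of 7 ion channel genes, 3 were higher and 1 lower, and of the 5 that passed the level in both groups, 2 were higher and none lower by the call limits. KCNJ2, an inward-rectifier potassium channel, rose from 5.9 to 11.4 in CTR to 34.9 to 50.8 in PB1, and KCNMB4, a regulatory subunit of calcium-activated potassium channels, fell from 15.2 to 24.9 to 1.09 to 3.32. AQP1, a water channel, had 52, 53, 53.6 and 53.3 in CTR and 127, 133, 192 and 223 in PB1.

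The 12 largest rises of named genes with a mean signal of at least 50 included a secreted lectin and 2 WNT inhibitors. CLEC3B (tetranectin, chromosome 2, 43005186 to 43011974), a secreted plasminogen-binding lectin, had 171, 172, 112 and 127 in CTR and 1670, 1740, 1770 and 2170 in PB1. It was 12.8-fold higher (log2 fold change 3.68 ± 0.14, limma adjusted p = 1.58e-09). APCDD1, a membrane inhibitor of WNT signalling, had 59.4, 57, 105 and 98 in CTR and 733, 697, 693 and 771 in PB1. SFRP1, a secreted WNT antagonist (chromosome 22, 2736789 to 2747690), had 176, 169, 275 and 297 in CTR and 1010, 984, 869 and 838 in PB1, a 4.16-fold rise. The list was limited to called genes whose groups did not overlap, so the separation of both inhibitors follows from that choice. Among the 10 genes of the WNT, Notch and Hedgehog class, to which APCDD1 was not assigned, 2 were higher and 2 lower. Over the 8 that passed the level in both groups, 1 was higher and 1 lower. The ligand gene WNT9A rose from 7.89 to 9.38 to 20.2 to 25.3, and the WNT receptors ROR2 and FZD2 fell, from 8.05 to 23.1 to 0.668 to 1.79 and from 114 to 141 to 78.2 to 83.7. WNT9A and ROR2 passed the level in 1 group only and so had to differ to some degree.

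Of 11 genes of growth factors and receptor kinases, 4 were higher and 3 lower (63.6%, against 19.0% of all tested members). IGFBP4, which binds insulin-like growth factors, had 2610, 2450, 2510 and 2880 in CTR and 7350, 7310, 6500 and 7520 in PB1 (log2 fold change 1.46 ± 0.08). SPRY2, a feedback inhibitor of receptor kinases, rose from 42.9 to 71.6 to 133 to 154. AXL, a receptor kinase for the uptake of dying cells, rose from 30.5 to 38.7 in CTR to 51.5 to 63.1 in PB1, while MFGE8, a secreted bridging protein of the same process, fell from 1100 to 1230 to 569 to 759. These 2 genes of phagocytosis moved in opposite directions. Other named genes with large changes were NES (nestin, an intermediate filament protein), which rose from 72.8 to 96.6 to 309 to 328, MAGT1 (a subunit of the oligosaccharyltransferase), which rose from 161 to 187 to 535 to 598, and ST8SIA2 (a polysialyltransferase), which rose from 23.7 to 26.2 to 68.4 to 82.3. LSAMP, a cell-surface adhesion protein of neurons, had 50.6, 44.7, 89.1 and 87.6 in CTR and 1.98, 1.54, 2.04 and 1.41 in PB1, with 1110 reads against 27. It passed the level in CTR only and so had to differ to some degree.

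Genes of growth and housekeeping seldom passed the 1.5-fold limit. The 29 ribosomal protein genes had a median log2 fold change of 0.21 and a range of -0.19 to 0.40. An adjusted p of at most 0.05 in limma was reached by 13 of them, all under the fold limit, and by 1794 of the 4093 tested members. The 24 translation factors had a median of -0.01. Of 25 cell cycle and mitosis genes, 1 was lower, CCNE1 (cyclin E1), which fell from 11.1 to 14.3 in CTR to 5.46 to 7.59 in PB1. Of 26 proteasome and ubiquitin genes, 1 was lower, the ubiquitin hydrolase UCHL1, from 39.5 to 59.9 to 8.11 to 11.2. Of 40 genes of vesicle traffic and autophagy, 1 was higher, the small GTPase gene RAB40B, from 18.4 to 24.9 to 37.6 to 39. Among 10 histone and chromatin genes, the linker histone H1F0 rose from 125 to 148 to 276 to 325 and the macroH2A gene H2AFY2 fell from 30.7 to 35 to 7.1 to 12.6. CCNE1, UCHL1 and H2AFY2 passed the level in CTR only and so had to differ to some degree. Over genes that passed it in both groups, none of 23 cell cycle and none of 25 proteasome and ubiquitin genes was called. Of 8 such histone and chromatin genes, 1 was higher and none lower by the call limits.

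The effect of PB1 was also measured in LPS-stimulated cells, by comparing LPS+PB1 with LPS, 2 groups that share no library with CTR and PB1. LPS was given at 100 ng/mL, for 6 h by the labels and 12 h by the study's methods. Of the 755 called members that could be tested there, 307 (40.7%) had the same sign, against 42.9% of the 4068 members tested in both settings. In the LPS setting 119 were called in the same direction, 185 in the opposite direction and 451 were not called, where 17.6% of all 4546 transcripts tested were called. The difference between the effects, tested as an interaction of PB1 and LPS in limma over the 16 libraries, passed an adjusted p of 0.05 for 637 of the 779 called members (81.8%). Of these, 620 had a smaller or opposite effect with LPS and 17 a larger one. The called members were chosen on libraries that also enter the interaction, which favours a larger effect without LPS, so these shares are a description. Over all 4093 members, 1867 (45.6%) passed the interaction, and over all 4651 transcripts tested, 45.2% did.

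**Figure D4:**
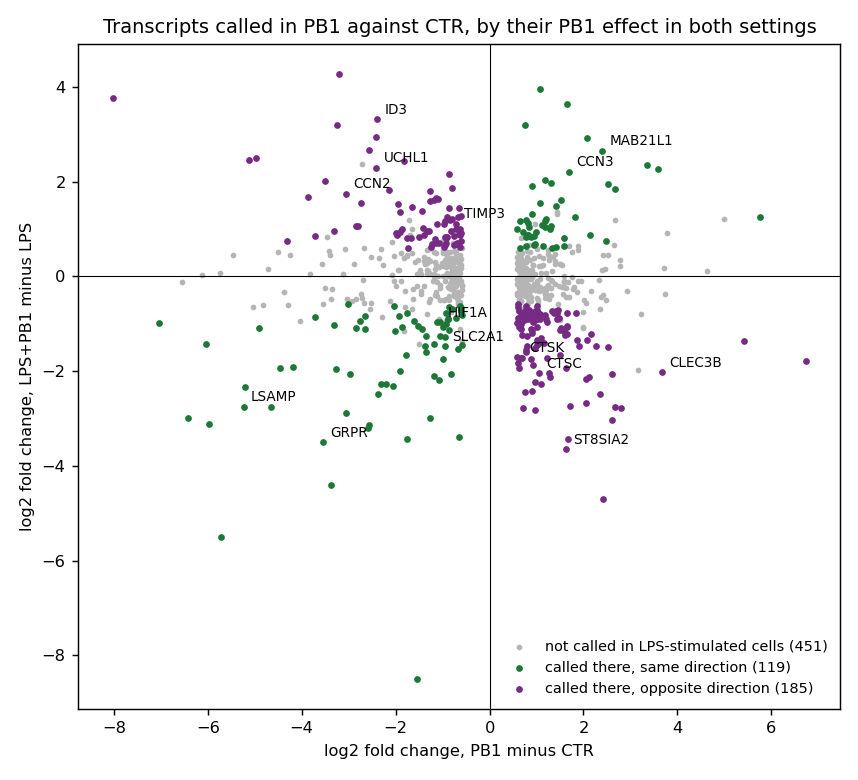
Log2 fold change of PB1 against CTR (x axis) and of LPS+PB1 against LPS (y axis) for the 755 called members tested in both, in grey where not called in LPS-stimulated cells (451), green where called there in the same direction (119) and purple where called in the opposite direction (185). CCN2, ID3 and UCHL1 lie in the upper left and CLEC3B, ST8SIA2, CTSC and CTSK in the lower right, whereas HIF1A, SLC2A1, GRPR and LSAMP are lower in both settings.

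HIF1A was lower with PB1 in both settings, with log2 fold changes of -1.05 without LPS and -0.96 with it (limma adjusted p = 0.0119), and its interaction was 0.08 ± 0.25 (limma adjusted p = 0.842). GRPR was also lower in both, at -3.54 and -3.50, as was SLC2A1, at -0.94 and -1.47. The 2 rises of MAB21L1, a developmental nucleotidyltransferase-fold gene, were 2.40 and 2.65, and those of CCN3 were 1.68 and 2.21, with a larger effect under LPS (interaction 0.51, limma adjusted p = 0.0417). CCN2, by contrast, was -3.06 without LPS and 1.74 with it, an interaction of 4.79 ± 0.19 (limma adjusted p = 1.31e-11). ID3 turned from -2.40 to 3.32, TIMP3 from -0.71 to 1.11 and EPAS1 from -1.34 to 0.95, each with a called rise under LPS. In the other direction CLEC3B turned from 3.68 to -2.03, CTSC from 1.05 to -2.05, GJA1 from 1.58 to -1.16 and TLR3 from 0.79 to -1.47. For COL1A2 and COL3A1 the PB1 effect was smaller with LPS than without, at -0.21 (adjusted p = 0.493 in limma) and -1.08 (0.00456). Their interactions were 1.19 and 0.78 (limma adjusted p of 0.00112 and 0.0283). COL6A2 differed from them, with a log2 fold change of 0.19 without LPS, where it was not called. It had 62085 to 81414 reads in the LPS libraries and 31123 to 37860 in the LPS+PB1 libraries. HIF1A and EPAS1, which fell together without LPS, thus had different signs with it.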

How the data were processed

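RNA-seq libraries of HD11 cells were made with a TruSeq kit. The authors used HISAT2 for alignment (GRCg7b) and HTSeq for counting, and whether counting used strand is not given in the sources used here. The deposited values are a scaled signal: reads plus 1 were multiplied by the step of the library (2.97 to 5.53 over 16 libraries) and rounded down. Dividing by the step recovered 4173989 to 4414942 reads per library, with 100.0% of values on the step within rounding. Of 6492 transcripts, 604 had no read in any library and 1697 were matched to a gene symbol in the GRCg7b RefSeq table, all of them curated accessions. A named gene stands for 1 transcript accession, and further transcripts of it may lack a name. Gene coordinates are those of RefSeq.

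Because the values are not plain counts, limma 3.58.1 (trend) on log2 of the deposited signal, scaled to 1e+06 after TMM (edgeR 4.0.16), replaced the planned count test. No pseudocount was added beyond the authors' 1 read. Transcripts were filtered with filterByExpr (minimum count 10), and p-values were Benjamini-Hochberg adjusted over all transcripts tested. Calls needed an adjusted p of at most 0.05 and 1.5-fold. Alternatives were edgeR and DESeq2 1.42.0 on recovered reads, RLE factors, no filter, a pseudocount, a replicate block, all 16 libraries, pair means, each pair alone, both-group membership and each library left out. The scripts (R 4.3.3, Python 3.11.15) were tested on simulated data.

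The members, the 49 gene lists and the tests were chosen with earlier results of these data known. Named genes were, in each class, up to 4 called genes with the largest change, 12 per direction with the largest change among called, non-overlapping genes with a mean of at least 50, 6 per direction with the largest difference in signal, HIF1A, all genes of the HIF, NRF2, NF-κB and interferon lists, and 4 transcripts without a symbol. Older symbols (10) were matched after the table was seen. Other genes that the study names for this comparison were not analysed here. A gene of the lists is not reported here. Counting intervals are exact 95% intervals. The depth per library limits the precision of genes with few reads.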

Additional observations from a re-analysis of the deposited data

Results flagged for a closer look

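In 15 of 274 groups of 4 libraries looked at, 1 library stood apart from the other 3 by more than Dixon's 95% limit, and chance gives about 1 in 20. HBA1 had 557 reads in PB1 replicate 3 and 6 in the highest CTR library. Among the named transcripts, the separate library had a signal of 0.64 for XM_046917801.1, 0.448 for HOXB5, 0.439 for SOX6, 5.7 for RHOJ, 148 for TMEM173, 8260 for LOX and 535 for MAGT1 in PB1. In CTR it had 8.14 for GPR37, 2430 for ACTN1, 626 for PRDX6, 11600 for FSTL1, 16.3 for SELENOP1 and 1.98 for VNN2. The whole PB1 group held 2 reads of XM_046917801.1, 1 of HOXB5 and 1 of SOX6, so the flags of these transcripts rest on counts at the floor.

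The PB1 effect differed between cells with and without LPS, by the interaction test in limma, for these named genes, given as the effect with LPS minus that without on the log2 scale. For genes lower in PB1 alone the difference was 2.473 for LSAMP, 3.808 for WISP1, 3.681 for CHAC1, 2.247 for MMP10, 3.08 for CH25H, 2.275 for SLC38A1, 4.793 for CCN2, 2.367 for ADAM19, 2.464 for SCD, 1.769 for MEIS2, 2.066 for PTX3 and 0.783 for COL3A1. For genes higher in PB1 alone it was -5.278 for ST8SIA2, -3.568 for AQP1, 0.514 for CCN3, -1.779 for MAGT1, -2.211 for NES, -2.05 for TBX18, -2.631 for SFRP1, -4.751 for SELENOP1, -1.741 for PTGER2, -4.039 for APCDD1 and -5.709 for CLEC3B.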

How the results depend on the processing

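With no limit on the fold change, 1960 transcripts, 1794 members and 254 class genes were called. The count of members called was 774 to 798 with 1 library left out, that of all transcripts 939 to 976, that of class genes 116 to 122 and that of members with an interaction 1659 to 1887. When each replicate pair (1 with 2, 3 with 4) was averaged to 1 sample, 756 members were called, 755 of them among the 779, and edgeR and DESeq2 called 782 and 785. Membership in both groups left 574 called. With the replicate block 781 members and 945 transcripts were called. Same-numbered libraries of CTR and PB1 had correlations of deviations of 0.15, 0.17, 0.03 and 0.36, so the numbers were not taken to pair them. Of 110 named genes called, 9 lost the call under at least 1 alternative, and none reversed under the alternatives run. Depth limits ratios for genes with few reads in 1 group.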
